A study of Homo sapiens with 12 samples.

Results

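The AP-1 and EGR immediate early genes are 10 genes chosen by name, 4 of the FOS family (FOS, FOSB, FOSL1, FOSL2), 3 of the JUN family (JUN, JUNB, JUND) and 3 of the EGR family (EGR1, EGR2, EGR3). The choice was made with earlier results of these data known, which limits what their shares set against all genes can show. All 10 were found among the 26485 genes of the count files, and all 10 passed the filter on low counts, which left 14865 genes to be tested. EGR3, with 0 counts in control and 1 with trametinib, passed that filter only through its EC359 and combination libraries. They were measured by RNA-seq in OVCAR8, an established human ovarian cancer line that the study uses as a Ras-mutant model, after 7 h of treatment. The 4 groups were vehicle (control), EC359 at 150 nM, trametinib at 100 nM, and the combination of EC359 at 150 nM with trametinib at 100 nM, with 3 libraries each and 12 in all. EC359 is a small-molecule inhibitor of LIFR, the receptor of leukemia inhibitory factor, and trametinib inhibits MEK, the kinase that activates ERK. The data come from a single cell line at a single time point, and the labels do not say whether the 3 libraries of a group came from separate cultures, so the p-values measure the spread between these libraries, which may be technical.

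Immediate early genes are transcribed within minutes of a stimulus without new protein synthesis, and many of them encode transcription factors that carry the signal to later genes. AP-1 is a dimer of bZIP proteins. JUN proteins can pair with each other or with FOS proteins, whereas FOS proteins need a JUN-type partner to bind DNA. EGR proteins are zinc finger factors that bind GC-rich sites. ERK drives the transcription of FOS and EGR1 through ternary complex factors and serum response factor bound at CArG boxes, FOSL1 is a long-known readout of sustained ERK signaling, and JUN is induced by the stress kinases JNK and p38 as well, partly by its own protein acting on its promoter.

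Between 24790392 and 32467283 counts per library were assigned to genes. Levels are given in CPM (each library's counts brought to the same TMM-adjusted total), and levels of different genes are compared only as CPM per kilobase of exon (CPM per kb). Across genes, which are not independent replicates, Pearson's r of log2 CPM was 0.993 or 0.994 for libraries that shared a condition and at most 0.989 for any others. Of 9 ovarian epithelial markers, 6 (KRT8, KRT18, KRT7, EPCAM, PAX8, WT1) were at 1 CPM or more in every library, while KRT19 and MUC16 were at 0.0845 CPM or less and CDH1 at 0.564 CPM or less. Of 6 markers taken for other cells, 2 (CD68 and COL1A1) were over 1 CPM in every library. The leukocyte marker PTPRC, the T cell marker CD3E and the fibroblast marker DCN had no count in any library, and PECAM1 was at 0.19 CPM or less. CD68 lay between 47.9 and 60.6 CPM. COL1A1, a collagen gene, differed by treatment. It lay from 415 to 435 CPM in control, 219 to 232 with EC359, 513 to 525 with trametinib and 314 to 335 in the combination, and its part in the results was not tested. TMM centred the median gene near 0, and scaling by total counts moved the median log2 fold change of all genes to -0.146 for EC359 against control and to -0.144 for the combination against control. Results are called at a Benjamini-Hochberg adjusted p under 0.05 from edgeR's quasi-likelihood test over all genes tested, and "2-fold" results passed that threshold with a fold change of at least 2.

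The promoters of a few of these genes are shown because they carry different textbook elements and because the genes moved in different directions with trametinib, as described further on. RefSeq gave promoters for 8 of the 10 genes, 10 promoters in all since EGR2 has several starts, and FOSL1 and EGR3 had no entry. The window searched ran from 250 bases before the start to 50 bases after it, on both strands, for the CArG box, for the cAMP response element TGACGTCA, for the AP-1 element TGACTCA, for its JUN promoter variant TGACATCA, and for the ETS core CCGGAA. These sequences run 5′ to 3′ on the gene's strand from 250 to 51 bases before the start in GRCh38.p14, with the matched element in capitals. They lie at chr5:138465229-138465428 (plus strand) for EGR1, chr10:62816417-62816616 (minus strand) for EGR2, chr1:58784098-58784297 (minus strand) for JUN and chr19:18281673-18281872 (minus strand) for JUND. The EGR2 window belongs to the most downstream of its starts and is intronic in the authors' annotation.
EGR1: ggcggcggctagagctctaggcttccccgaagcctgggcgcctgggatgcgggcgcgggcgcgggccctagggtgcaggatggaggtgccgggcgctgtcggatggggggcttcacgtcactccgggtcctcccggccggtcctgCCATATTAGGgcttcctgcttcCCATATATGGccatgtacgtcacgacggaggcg
EGR2: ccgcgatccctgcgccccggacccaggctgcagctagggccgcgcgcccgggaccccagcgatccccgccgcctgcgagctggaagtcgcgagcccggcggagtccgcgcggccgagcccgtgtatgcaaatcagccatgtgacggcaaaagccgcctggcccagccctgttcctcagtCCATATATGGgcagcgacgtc
JUN: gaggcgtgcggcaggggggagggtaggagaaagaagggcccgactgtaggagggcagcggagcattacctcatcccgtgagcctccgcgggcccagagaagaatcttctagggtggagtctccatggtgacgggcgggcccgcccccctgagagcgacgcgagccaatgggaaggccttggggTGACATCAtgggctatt
JUND: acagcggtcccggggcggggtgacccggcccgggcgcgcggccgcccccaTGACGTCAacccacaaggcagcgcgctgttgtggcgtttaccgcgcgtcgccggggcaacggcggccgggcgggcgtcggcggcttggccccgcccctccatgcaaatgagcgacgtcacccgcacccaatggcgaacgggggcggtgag
EGR1 held 2 CArG boxes, from 105 to 96 and from 83 to 74 bases before the start, and EGR2 held 1, from 71 to 62. A CArG box was found in 1.29% of 35116 RefSeq promoters of the same length. JUN held TGACATCA from 67 to 60 bases before the start (2.61% of all promoters), and JUND held TGACGTCA from 200 to 193 (1.85%). FOSB had CCGGAA (17.2% of all promoters) and FOSL2 had TGACTCA shortly after its start (4.95%). The windows of FOS and JUNB held none of these letters, which says nothing about elements outside them. A match is a description of the sequence and not evidence that a factor binds there. FOS, FOSB and FOSL2 were also lower with trametinib and had no CArG box in the windows searched, so the windows shown do not stand for all the genes. Whether an element goes with the direction of change was not tested.

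Compared to control, EC359 raised all 10 genes at an adjusted p under 0.05, a threshold that 61.1% of all genes tested passed in either direction and 30.8% upward. Of the 10, 8 rose by at least 2-fold, against 4.19% of all genes, and the exceptions were FOSL1 and FOSL2. The filter fixed the direction of EGR3 in the comparisons of a group with EC359 and one without it. Without EGR3, 9 of 9 genes rose with EC359, 7 of them by at least 2-fold. Their median was 2.93 on the log2 scale, against -0.0121 over all genes. EGR2 was at the edge of the 2-fold count, which with all 10 genes was 7 with total counts (EGR2 at 0.90) and 7 without control replicate 2 (0.98) or control replicate 3 (0.99). Trametinib lowered 6 and raised 2 of the genes (28.2% of all genes passed in either direction), with 3 lowered by at least 2-fold (FOS, FOSL1 and EGR1), against 0.955% of all genes. The median over the 9 genes other than EGR3 was -0.57, against 0.00441 over all genes. The combination raised 8 and lowered 2 compared to control (69.6% of all genes passed), with 6 raised and 1 lowered by at least 2-fold, against 7.27% and 5.87% of all genes. Without EGR3 it raised 7 of 9, 5 of them by at least 2-fold, and the median log2 fold change was 2.13, against -0.00527 over all genes. These 3 comparisons share the control libraries. In bulk RNA, fewer cells of a type and less RNA per cell cannot be told apart, and all values are relative to the other transcripts of the library.

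Set against EC359 alone, the combination had 8 of the genes lower and 2 higher (49.2% of all genes passed in either direction), with 6 lower by at least 2-fold against 1.55% of all genes. JUN and JUND were the 2 that were higher. Against trametinib alone, the combination had 8 higher and 0 lower by edgeR (68.2% of all genes passed), with 7 higher by at least 2-fold against 6.12% of all genes. Without EGR3 these were 7 and 6 of 9. FOSL1 and EGR2 were the 2 that did not pass, and the number of lower genes was also 0 at an unadjusted p under 0.05 and by DESeq2. EC359 alone was above trametinib alone for all 10 (62.8% of all genes passed), by at least 2-fold for 9 (4.7% of all genes), with FOSL2 as the exception, and without EGR3 these were 9 and 8 of 9.

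**Figure D1:**
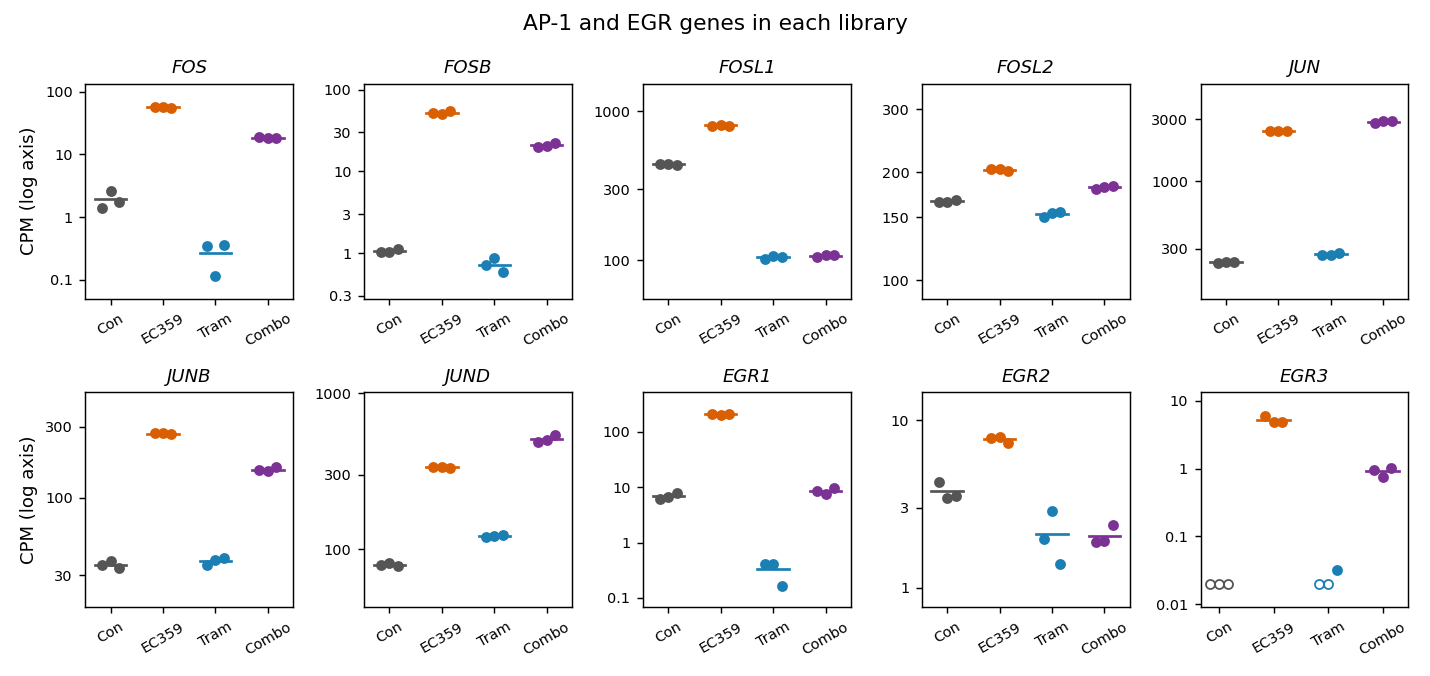
CPM of each of the 10 genes in each of the 12 libraries on a log axis, with 1 point per library, a line at the mean of each group, and open circles drawn at 0.02 CPM for libraries with no count. All EC359 points lie above all control points in every panel, the JUN and JUND panels have their highest points in the combination, and the trametinib and combination points overlap in the FOSL1 and EGR2 panels.

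FOS, the founding FOS protein and a classic target of ERK signaling, was counted on chromosome 14 from 75278778 to 75282234 (hg38). It stood at 1.39, 2.63 and 1.74 CPM in the control libraries and at 58.1, 57.8 and 55.9 CPM with EC359. It was at 0.343, 0.114 and 0.357 CPM with trametinib, from 25 counts in all, and at 19.2, 18.6 and 18.0 CPM in the combination. The 4 groups did not overlap, and their order was EC359, combination, control and trametinib. FOS rose 29.6-fold with EC359 (log2 fold change 4.89, standard error 0.11, adjusted p = 4.61e-22) and fell by 2.77 on the log2 scale with trametinib (standard error 0.27, adjusted p = 1.49e-08). The standard error with EC359 is smaller than the spread of the control libraries would give. When a library of the compared groups was left out, the log2 fold change ran from 4.722 to 5.177 with EC359. With trametinib it ran from -2.989 to -2.451. In the combination it was 9.60-fold above control, 3.08-fold below EC359 alone and 65.4-fold above trametinib alone.

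FOSB, on chromosome 19 from 45467995 to 45475179, encodes a FOS protein that also exists as a long-lived shorter isoform, which gene-level counts do not separate. Its control libraries held 1.04, 1.05 and 1.12 CPM, and its EC359 libraries 51.3, 50.2 and 55.5 CPM. With trametinib it was at 0.718, 0.874 and 0.584 CPM, and in the combination at 19.7, 20.6 and 22.0 CPM. FOSB had the largest fitted fold change of the 9 genes with control counts under EC359, 48.8-fold (log2 fold change 5.61, standard error 0.09, adjusted p = 3.15e-48), and it was 19.4-fold above control in the combination. The standard error with EC359 is smaller than counting error from the 100 control counts would give. The decrease with trametinib, -0.57 on the log2 scale (standard error 0.19), passed by a narrow margin (adjusted p = 0.0431), although all 3 trametinib libraries lay below all 3 controls. It did not pass with DESeq2 (adjusted p = 0.0622) or when any of 5 of the 6 libraries was left out, the largest adjusted p being 0.213 without trametinib replicate 3.

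FOSL1 (FRA1), on chromosome 11 from 65892136 to 65900526, lacks the transactivation domain of FOS and is stabilized by ERK phosphorylation. It was the most abundant FOS-family gene, at 252 ± 1.82 CPM per kb in control (SD, n = 3), against 41.6 ± 0.390 for FOSL2, 0.890 ± 0.296 for FOS and 0.282 ± 0.0120 for FOSB. The control libraries held 444, 442 and 438 CPM of FOSL1 and the EC359 libraries 803, 814 and 799 CPM. With trametinib it was at 102, 106 and 106 CPM, and in the combination at 105, 109 and 108 CPM. FOSL1 thus rose 1.82-fold with EC359 (adjusted p = 1.88e-38) and was lower with trametinib by a log2 fold change of -2.07 (standard error 0.03, adjusted p = 3.13e-54). The trametinib and combination libraries overlapped.

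The combination stood 4.12-fold below control for FOSL1 and 7.51-fold below EC359 alone, a log2 fold change of -2.91 (standard error 0.03), which was the smallest p-value of all 14865 genes in that comparison. Against trametinib alone the log2 fold change was 0.03 (95% interval -0.02 to 0.09, adjusted p = 0.287). The sign of that small difference depended on the scaling, since total counts gave -0.13 with an adjusted p of 3.73e-05, while the median gene stood at -0.16 on that scale.

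FOSL2 (FRA2), on chromosome 2 from 28392912 to 28414649, was the steadiest of the 10 genes. It lay between 165 and 168 CPM in control, between 202 and 205 CPM with EC359, between 150.4 and 155 CPM with trametinib and between 179.8 and 184 CPM in the combination, and no groups overlapped. Its log2 fold changes were 0.29 with EC359 (adjusted p = 8.25e-15), -0.12 with trametinib (adjusted p = 2.82e-04) and 0.13 in the combination (adjusted p = 1.53e-05). All 3 passed the test although the largest was 1.23-fold. With total counts the value for the combination was -0.01 (adjusted p = 0.798), when the median gene was at -0.144.

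JUN (c-Jun), an intronless gene on chromosome 1 from 58780791 to 58784113, was the most abundant of the JUN family in every group. Its control libraries held 235, 239 and 235 CPM and its trametinib libraries 271, 269 and 278 CPM. With EC359 it reached 2439, 2453 and 2445 CPM, and in the combination 2812, 2879 and 2925 CPM. The groups did not overlap, and JUN was highest in the combination. EC359 raised it 10.3-fold (log2 fold change 3.37, standard error 0.02, adjusted p = 7.37e-67), the second smallest p-value of the comparison, and the combination 12.1-fold (log2 fold change 3.60, standard error 0.02, adjusted p = 3.30e-68). Trametinib alone raised it 1.15-fold (log2 fold change 0.21, adjusted p = 9.48e-11), and adding trametinib to EC359 raised it 1.17-fold (log2 fold change 0.23, adjusted p = 5.09e-14).

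In the control libraries JUN held 0.0247% of all counts and ranked between 1040 and 1058 of 14865 genes by CPM per kb. In the EC359 libraries it held 0.233% and ranked between 79 and 81, and in the combination 0.272% and between 75 and 76. With trametinib alone it held 0.0289%.

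JUNB, on chromosome 19 from 12791496 to 12793311, encodes a JUN protein with weaker transactivation than JUN on single AP-1 sites. It was at 35.1, 37.6 and 33.8 CPM in control and 35.4, 38.1 and 39.4 CPM with trametinib, and these groups overlapped. With EC359 it was at 271, 272 and 268 CPM, and in the combination at 153, 152 and 160.4 CPM. JUNB rose 7.62-fold with EC359 (log2 fold change 2.93, standard error 0.04, adjusted p = 7.68e-55) and 4.37-fold in the combination, which was 1.74-fold below EC359 alone (log2 fold change -0.80, adjusted p = 4.09e-30). For trametinib against control the log2 fold change was 0.08 (95% interval -0.00168 to 0.17, adjusted p = 0.145). That difference passed with total counts (0.11, adjusted p = 0.047) and without control replicate 2 or trametinib replicate 1 (0.13 in each case, adjusted p = 0.0398 and 0.0369).

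JUND, on chromosome 19 from 18279694 to 18281656, is known as the JUN protein that is present in resting cells. It was at 79.9, 81.9 and 78.3 CPM in control, 337, 337 and 330.2 CPM with EC359, 121, 122 and 124 CPM with trametinib, and 485, 504 and 541 CPM in the combination. As with JUN, no groups overlapped, the combination was highest, and trametinib alone was above control. JUND rose 4.19-fold with EC359 (log2 fold change 2.07, standard error 0.03, adjusted p = 9.14e-44), 1.53-fold with trametinib (log2 fold change 0.61, standard error 0.03, adjusted p = 1.08e-20) and 6.38-fold in the combination (log2 fold change 2.67, standard error 0.03, adjusted p = 1.15e-48). Adding trametinib to EC359 raised JUND 1.52-fold (adjusted p = 1.00e-23).

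EGR1, on chromosome 5 from 138465492 to 138469315, spanned the widest range of the genes that had counts in every library. Its control libraries were at 6.07, 6.66 and 7.98 CPM and its EC359 libraries at 206, 204 and 211 CPM. With trametinib it was at 0.406, 0.418 and 0.162 CPM, from 29 counts in all, and in the combination at 8.54, 7.53 and 9.54 CPM. The combination libraries overlapped with control and with no other group. EGR1 rose 29.8-fold with EC359 (log2 fold change 4.90, standard error 0.06, adjusted p = 1.06e-38) and was 21.1-fold lower with trametinib (log2 fold change -4.40, standard error 0.19, adjusted p = 2.45e-20). The standard error with trametinib is smaller than counting error from the 29 counts would give. When a library of either group was left out, the trametinib value ran from -4.612 to -4.065. The combination was 24.3-fold below EC359 alone (log2 fold change -4.60, adjusted p = 4.06e-37) and 25.9-fold above trametinib alone (log2 fold change 4.70, adjusted p = 1.81e-22).

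Against control, the combination had a log2 fold change of 0.30 for EGR1 (95% interval 0.11 to 0.48, adjusted p = 0.00527). This call was lost with total counts (0.16, adjusted p = 0.132) and without combination replicate 3 (0.21, adjusted p = 0.0669).

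EGR2, on chromosome 10 from 62811996 to 62819167, is known for its part in Schwann cell myelination and in T cell tolerance. It was at 4.28, 3.46 and 3.53 CPM in control, 7.86, 7.89 and 7.33 CPM with EC359, 1.97, 2.89 and 1.40 CPM with trametinib, and 1.88, 1.90 and 2.37 CPM in the combination. The trametinib and combination libraries overlapped and both lay below all controls, as for FOSL1. EGR2 rose 2.05-fold with EC359 (log2 fold change 1.04, standard error 0.16, adjusted p = 1.63e-07), was lower with trametinib (-0.86, standard error 0.17, adjusted p = 8.33e-05) and was lower in the combination (-0.87, standard error 0.18, adjusted p = 2.01e-05). The combination differed from trametinib by -0.01 on the log2 scale, with a 95% interval from -0.38 to 0.36 (adjusted p = 0.963). The counts sum the transcripts from all EGR2 starts, so the start behind the CArG box was not measured by itself.

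EGR3, on chromosome 8 from 22687661 to 22693302, had no count in the 3 control libraries, which allows up to 0.0321 CPM over the group at 3 counts. It had 139, 147 and 123 counts with EC359, 24, 20 and 27 in the combination, and 1 count in a single trametinib library. EC359 raised EGR3 at least 162-fold and the combination at least 28.2-fold above that limit. The combination was lower than EC359 alone by a log2 fold change of -2.52 (standard error 0.23, adjusted p = 8.72e-14). Against the 1 count of the trametinib libraries, the ratio was 80.7 for the combination (95% interval 14.0 to 3231) and 463 for EC359 (82.6 to 18322), intervals that cover counting error only.

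**Figure D2:**
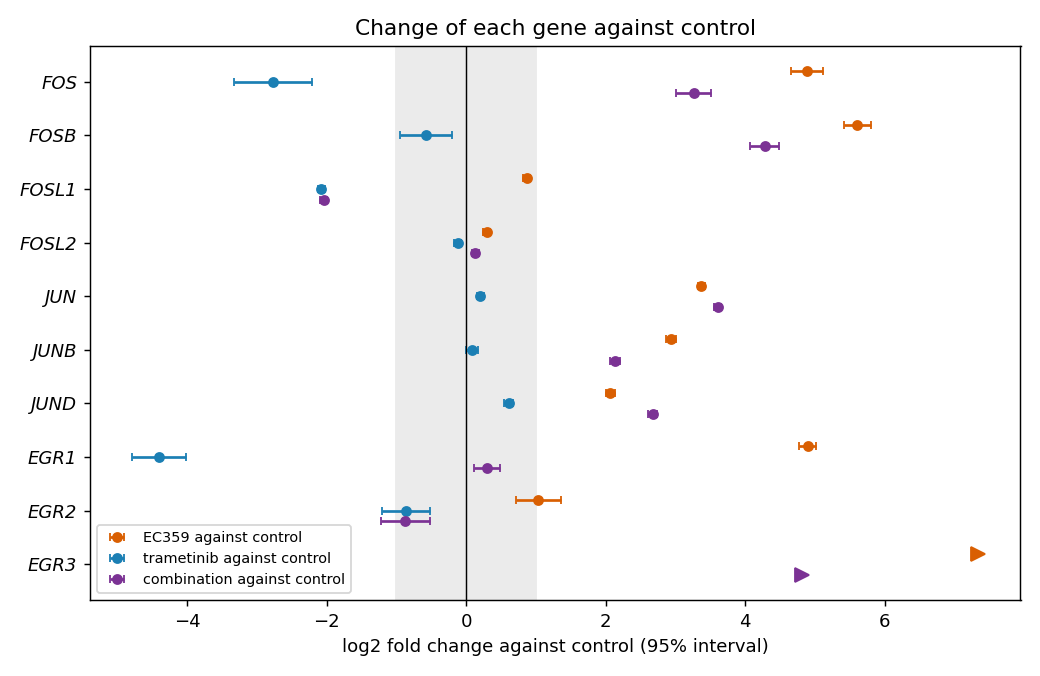
Log2 fold change of each gene against control with EC359, trametinib and the combination, with 95% intervals from edgeR's fit as error bars, a grey band where the change is under 2-fold, and triangles for the lower bounds of EGR3. The error bars are too narrow for large changes from few counts, as in FOS, FOSB and EGR1. FOSL1 lies to the left at -2.07 with trametinib and -2.04 in the combination, JUN, JUNB and JUND lie to the right at 2.07 or more in both groups with EC359, and EGR1 runs from -4.40 to 4.90 with the combination at 0.30.

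Summed over each family, the JUN genes stood at 131 ± 2.61 CPM per kb in control, 1056 ± 4.04 with EC359, 165 ± 3.26 with trametinib and 1210 ± 33.4 in the combination (SD, n = 3 each). The FOS family stood at 295 ± 1.43 CPM per kb in control, 551 ± 4.52 with EC359, 98.4 ± 1.75 with trametinib and 121 ± 1.58 in the combination. The EGR family stood at 3.39 ± 0.238, 69.7 ± 1.02, 0.769 ± 0.274 and 3.57 ± 0.427 CPM per kb in the same order. Summed FOS-family transcripts were thus fewer in the combination than in control, while summed JUN-family transcripts were highest there. The libraries of these groups did not overlap in either family. The lower FOS-family sum came from FOSL1, which stood at 252 CPM per kb in control and at 61.2 in the combination. FOS, FOSB and FOSL2 were each higher in the combination than in control, FOSL2 by 1.10-fold.

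The ratio of summed JUN-family to FOS-family transcripts per kb was 0.446 ± 0.00773 for control, 1.92 ± 0.0085 for EC359, 1.68 ± 0.0238 for trametinib and 10.0 ± 0.189 for the combination (SD, n = 3 each). The 3 combination libraries lay between 9.89 and 10.2, above every other library. With 3 libraries a group, an exact two-sided permutation test cannot go below 0.1, so these ratios and shares are given as values without a test. Transcript ratios do not measure the proteins or the dimers they form.

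The make-up of each family also differed between treatments. FOSL1 made up 85.5% ± 0.217 of the FOS family in control and 83.4% ± 0.132 with EC359, but 60.8% ± 0.218 with trametinib and 50.6% ± 0.359 in the combination. FOSL2 took 14.1% in control and 37.7% in the combination. FOS and FOSB together were under 1% of the family in control, and in the combination they took 7.13% ± 0.329 and 4.56% ± 0.211. In the JUN family, JUN held 54.1% ± 0.604 in control, 69.7% ± 0.209 with EC359 and 71.5% ± 0.628 in the combination, whereas JUND held 31.0%, 16.2% and 21.5%, and 37.7% with trametinib. JUNB had its lowest share in the combination, 7.06% ± 0.126 against 14.9% ± 0.498 in control. EGR1 was 64.7% ± 5.45 of the EGR family in control and 94.8% ± 0.335 with EC359, but 13.4% ± 3.48 with trametinib, where EGR2 took 86.1% ± 2.90 of a small total.

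**Figure D3:**
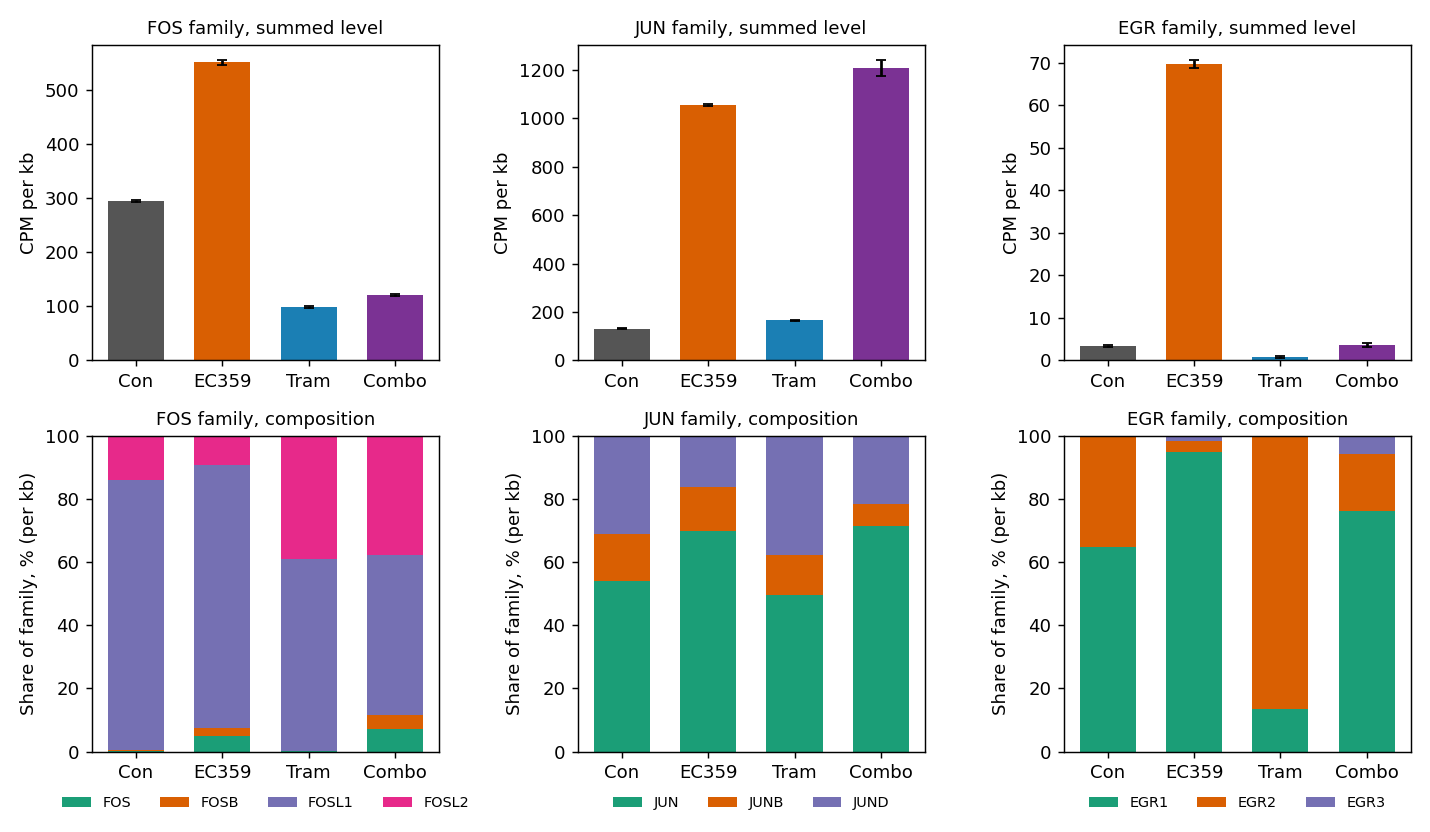
Upper panels show the summed CPM per kb of the FOS, JUN and EGR families in each group as bars at the mean of 3 libraries with SD error bars, and lower panels show each gene's mean share of its family in percent. The JUN family is highest in the combination at 1210 CPM per kb, the FOS family is highest with EC359 at 551, and the share of FOSL1 is lower in the trametinib and combination columns.

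Whether EC359 acted alike with and without trametinib was tested by the interaction term, the log2 effect of EC359 in the presence of trametinib minus its effect in its absence. Of the 9 genes for which a fold can be given, 5 passed at an adjusted p under 0.05 (30.3% of all genes passed), 1 with a larger effect of EC359 under trametinib and 4 with a smaller one. FOS was the gene with the larger effect, 6.03 on the log2 scale with trametinib against 4.89 without it, a difference of 1.14 (standard error 0.31, adjusted p = 0.00665). The smaller effects were those of EGR2 (-0.01 with trametinib against 1.04 without it, difference -1.05, standard error 0.24, adjusted p = 6.78e-04), JUNB (2.04 against 2.93, difference -0.89, standard error 0.05, adjusted p = 3.05e-20), FOSL1 (0.03 against 0.87, difference -0.83, standard error 0.04, adjusted p = 1.54e-26) and FOSB (4.85 against 5.61, difference -0.76, standard error 0.20, adjusted p = 0.00858).

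FOS and EGR2 differed by at least 2-fold in this test, against 1.57% of all genes. The trametinib libraries of FOS held 3 to 11 counts each, so its interaction rests on few reads, and its value ran from 0.83 to 1.37 when any library was left out. The value for EGR2 ran from -1.27 to -0.75 when any library was left out. The number of genes past 2-fold was 0 without control replicate 2 or trametinib replicate 2 and 1 without combination replicate 1 or 2. The interaction of FOSB was not called without trametinib replicate 2 (-0.62, adjusted p = 0.0858). For JUN, JUND, FOSL2 and EGR1 the test did not pass. The difference for JUN was 0.03 (95% interval -0.04 to 0.09, adjusted p = 0.566), for JUND -0.00241 (-0.09 to 0.08, adjusted p = 0.974) and for FOSL2 -0.04 (-0.12 to 0.03, adjusted p = 0.404). For EGR1 it was -0.20 with a wide interval, -0.90 to 0.49 (adjusted p = 0.709).

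**Figure D4:**
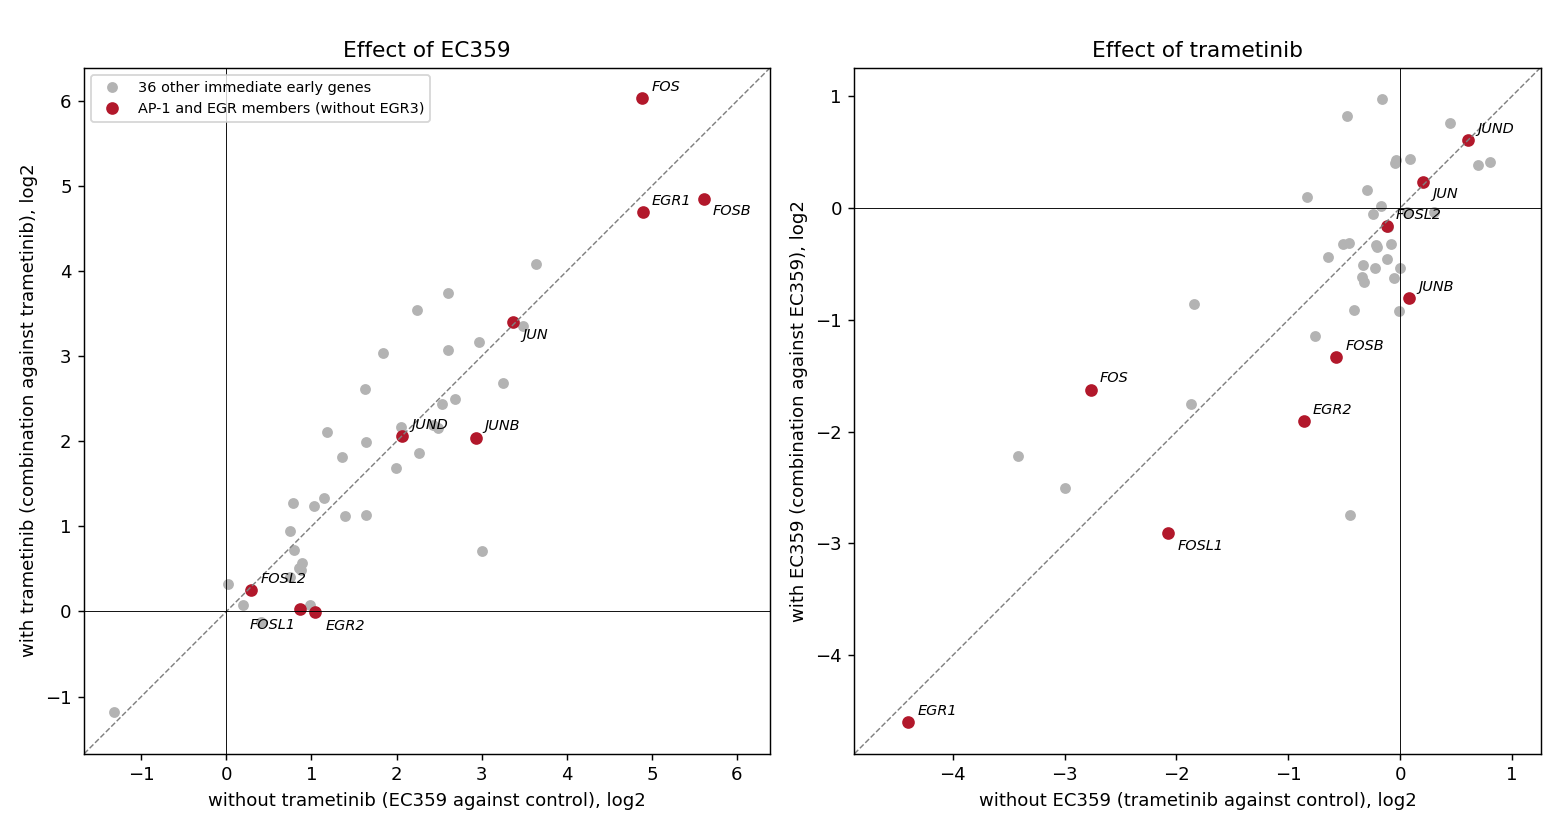
Log2 effect of EC359 without trametinib (x axis) and with it (y axis) on the left, and log2 effect of trametinib without EC359 (x axis) and with it (y axis) on the right, for the 9 genes without EGR3 (red) and 36 other immediate early genes (grey), with a dashed line at equal effects. JUN and JUND lie close to the line in both panels, FOSL1, FOSB, JUNB and EGR2 lie below it, and FOS lies above it.

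For each gene, the 2 other genes with the most similar profile over the 4 group means were sought among 9840 genes of at least 10 CPM in their highest group, by the root mean square distance of centred log2 CPM. With 4 groups many profiles look alike, and a small distance is a description only. The distance is not scaled and tends to grow with the size of a gene's changes, so distances of different genes cannot be compared. The nearest to FOSB was the chemokine gene CXCL2, at a distance of 0.0614, with log2 fold changes of 5.59 with EC359, -0.57 with trametinib and 4.35 in the combination. Its second was the heat shock gene HSPA6, much farther off at 0.594. Chemokine genes were also nearest to FOS (CXCL8 at 0.616, then CXCL2 at 0.735) and to EGR3 (CXCL2 at 0.522, then CXCL3 at 0.563), and the profile of EGR3 depends on how its zeros enter the logarithm. JUN had BBC3 (0.173), which encodes the pro-apoptotic protein PUMA, and CDKN1A (0.187), which encodes the cell cycle inhibitor p21. JUNB had the phosphatase gene DUSP1 (0.186) and the cytokine gene IL6 (0.191), and JUND had ADAMTS1 (0.0663), a secreted protease, and ZBTB10 (0.0688).

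FOSL1 was nearest to the ephrin receptor gene EPHA2 (0.204) and to RASA3 (0.265), both lower with trametinib, by log2 fold changes of -2.34 and -2.01. EGR2 was nearest to IRF2BPL (0.0874) and SEMA4B (0.0917), and FOSL2 to ASB6 (0.00855) and GINS3 (0.0121). The gene nearest to EGR1, whose range was wide, was that of the ERK phosphatase DUSP6, at a distance of 1.17. DUSP6 had log2 fold changes of 1.86 with EC359, -5.44 with trametinib and -1.41 in the combination. CXCL1 followed at 1.42.

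Related gene lists are described by their counts and medians. Of all genes tested, 30.8% rose and 30.3% fell with EC359, 13% and 15.2% with trametinib, and 35% and 34.7% in the combination. Of 36 other immediate early genes, all tested, 34 rose and 1 fell with EC359, with a median log2 fold change of 1.63 against -0.0121 over all genes. Of the 36, NR4A2, PTGS2, IER3 and EGR4 passed the filter on low counts only through libraries with EC359, and of the other 32, 30 rose and 1 fell (median 1.38). TRIB1, a pseudokinase gene, rose from 22.2 to 250 CPM (log2 fold change 3.49), and PLK2, a polo-like kinase gene, was the gene that fell, from 764 to 305 CPM (-1.32). NR4A2 and PTGS2, an orphan nuclear receptor gene and the gene of cyclooxygenase-2, had log2 fold changes of 3.64 and 3.25 at levels under 2 CPM. Trametinib lowered 21 and raised 4 (median -0.217), with PLK3 at -3.42, PHLDA1 at -3.00 and IER3 at -1.87 (standard error 0.57). IER3 was low throughout, with 0.341 CPM in control and 0.0949 CPM with trametinib, from 32 and 8 counts. In the combination 27 of the 36 rose and 6 fell compared to control (median 0.776). Of the 32 genes whose direction the filter did not fix, 25 rose and 6 fell (median 0.776). NR4A2 (4.04), whose direction the filter fixed, NR4A3 (3.58) and TRIB1 (3.14) rose most, while PHLDA1 (-1.73) and PLK2 (-1.63) fell by at least 2-fold. The interaction was at least 2-fold in KLF4 (1.30), PLK3 (1.20) and NR4A3 (1.14). EGR4 had -2.29, but it passed the filter on low counts only through the libraries with EC359 alone (176 counts, against 18 to 26 in the other groups), so the filter fixed the direction of its difference.

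Among 16 bZIP genes whose proteins pair with FOS or JUN proteins or compete for their sites, 13 passed the filter on low counts and were tested. EC359 raised 11 and lowered 1 (median 0.868). ATF3, a stress-induced repressor that pairs with JUN, rose from 3.29 to 85.3 CPM with EC359, to 8.04 CPM with trametinib and to 183 CPM in the combination. Like JUN and JUND, it was called higher with trametinib alone (log2 fold change 1.29) and in the combination against EC359 (1.10). Other genes of this list were called higher in both comparisons as well, by less than 2-fold. The small MAF genes MAFF and MAFK rose with EC359 by 2.79 and 2.74 on the log2 scale, and BATF2 fell (-1.50). Trametinib raised 5 and lowered 4 (median 0.0395), and MAFF, like FOSL1, was lower (-1.95). In the combination 11 rose and 2 fell compared to control (median 1.03), led by ATF3 (5.79), MAFK (3.16) and MAFG (2.36), with BATF2 lower (-2.42). MAFF was the bZIP gene with an interaction of at least 2-fold (1.38), going from 17.3 CPM with trametinib to 309 CPM in the combination.

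Of 18 upstream kinases and serum response factors, 17 were tested and RPS6KA2 was not. With EC359, 11 rose and 5 fell, with a median of 0.108, and RPS6KA5, a kinase that phosphorylates histone H3 at immediate early promoters, was the gene past 2-fold (1.35). With total counts 6 rose, and the median was -0.0258. Trametinib raised 3 and lowered 2 (median 0.0131), and the ternary complex factor gene ELK3 was lower from 126 to 51.6 CPM (log2 fold change -1.28). In the combination 7 rose and 5 fell (median 0.0413), with RPS6KA5 at 1.56, MKL1, a serum response factor coactivator gene, at 1.30, and ELK3 at -1.32. With total counts 10 of them fell in the combination, and the median was -0.0976.

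Of 20 genes with textbook AP-1 sites, 16 were tested, and MMP3, MMP10, MMP13 and CCL2 were not. EC359 raised 13 and lowered 2 (median 0.534), with the cytokine genes CXCL8 (6.31), IL11 (2.80) and IL6 (2.68) rising most. Trametinib lowered 13 and raised 1 (median -0.465), with CCND1, the cyclin D1 gene, from 808 to 184 CPM (-2.14), PLAU, the urokinase gene, from 40.1 to 14.5 CPM (-1.46), and CXCL8 (-1.39) lower by at least 2-fold. In the combination 9 rose and 6 fell compared to control (median 0.255). CXCL8 (4.86), HBEGF (2.37), an EGF receptor ligand gene, and IL11 (2.17) rose most, while CCND1 (-2.58) and PLAU (-1.25) fell, to 135 and 16.9 CPM. HBEGF had an interaction of 1.12, with 18.7 CPM with trametinib and 158 CPM in the combination.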

How the data were processed

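Polyadenylated RNA from OVCAR8 was made into stranded libraries and read from both ends for 100 bp. The deposited values are estimated counts per gene (expected counts) without normalization: per the file headers, the authors ran featureCounts 1.5.0-p1 on reverse-stranded reads with a mapping quality of at least 2, assigned them to genes by the exons of a UCSC hg38 annotation, and counted a read placed at several sites or genes as a fraction at each. The submitters' processing notes name HISAT2 and bcl2fastq, with versions not given in the sources used here. No other gene's exons overlap those of the 10 genes.

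Values were rounded to whole numbers (12.4% to 15.1% of genes per library were not whole). In R 4.3.3, edgeR 4.0.16 with filterByExpr (a minimum count of 10 and a minimum total of 15) left 14865 genes, and TMM factors lay between 0.947 and 1.06. A single robust quasi-likelihood model of the 4 groups gave each contrast and the interaction, with Benjamini-Hochberg adjustment over all genes tested. Standard errors came from the F statistic, and a group at 0 was given a limit of 3 counts. At the depth of these libraries 3 counts are 0.0883 to 0.127 CPM, and counting intervals cover counting error only.

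The 10 genes and the gene lists were chosen with earlier results of these data known. Named genes were the 10 genes, the 2 nearest profiles of each, and, from each list and comparison, at most 3 genes in each direction with the largest change among those past 2-fold. Alternatives were DESeq2 1.42.0, its size factors, total counts, other filters, fits of only the compared groups, a block for replicate number, and each library left out. Promoters came from RefSeq (GRCh38.p14). Other assays of the study were not analysed here.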

Additional observations from a re-analysis of the deposited data

Results flagged for a closer look

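The effect of EC359 with trametinib differed from its effect without trametinib, by the interaction term of edgeR's quasi-likelihood test, in 5 of the AP-1 and EGR genes. The difference on the log2 scale was 1.14 for FOS, -0.76 for FOSB, -0.835 for FOSL1, -0.886 for JUNB and -1.05 for EGR2. For FOS the trametinib libraries held 11, 3 and 11 counts. For FOSL1 and EGR2 the effect of EC359 under trametinib did not pass the test itself, whereas for JUNB and FOSB it did.

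Among the related genes named for this test, the difference was 1.38 for MAFF, 1.14 for NR4A3, 1.30 for KLF4, 1.20 for PLK3, -2.29 for EGR4 and 1.12 for HBEGF. EGR4 was at 0.197 CPM with trametinib and 0.331 CPM in the combination, and NR4A3 at 0.592 and 7.87 CPM. EGR4 passed the filter on low counts only through the libraries with EC359 alone, which fixed the direction of its difference.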

How the results depend on the processing

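Of 448 member fold changes recomputed under the alternatives other than leaving out a library, 438 kept their direction and their side of the threshold, and of 462 with a library left out, 443 did. With total counts the log2 fold change turned to -0.007882 for FOSL2 in the combination against control, to -0.1307 for FOSL1 in the combination against trametinib and to -0.003124 for the interaction of JUN. Requiring 10 counts in every library left 7 of the 10 genes to test, so the number past 2-fold was 5 with EC359, 1 with trametinib, 3 for the combination against EC359, 4 for the combination against trametinib (5 at an adjusted p alone) and 1 for the interaction. With a library left out, the log2 fold change ran from -0.2321 to 0.2823 for EGR2 in the combination against trametinib, from -0.04656 to 0.03254 for the interaction of JUND and from -0.5363 to 0.0106 for that of EGR1. The number of genes with an interaction past 2-fold ran from 0 to 2, being 0 without control replicate 2 or trametinib replicate 2 and 1 without combination replicate 1 or 2. With all libraries FOS was at 1.14 and EGR2 at -1.05 on the log2 scale, both near the 2-fold cut-off, and the cause was not tested. FOSB with trametinib also lost its call with total counts (adjusted p = 0.0546), without a filter (0.0562) and with only the groups compared (0.107), an alternative that cannot give the interaction.

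The labels do not say whether libraries of the same number belong together. The deviations of same-numbered libraries correlated with r from -0.0669 to 0.0304, with 0 of 18 over 0.1. No shared effect of the number was thus seen, which cannot tell whether these libraries were prepared together. With the replicate number as a block, the number of called genes was 10, 8, 10, 10, 8, 10 and 5 in the 6 comparisons and the interaction, as without it, and the value for EGR2 in the combination against trametinib was 0.004201.

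For the lists, total counts gave 2 lower bZIP genes with EC359 and 2 in the combination against trametinib, 2 and 4 lower immediate early genes in these comparisons, and 6 higher upstream regulators with EC359. They gave 1 lower upstream regulator with trametinib, 10 in the combination against control and 9 against trametinib, and 6 higher and 8 lower for EC359 against trametinib. DESeq2 gave 1 lower AP-1 target with EC359 and 1 lower upstream regulator with trametinib. Of 56 recomputed list medians, 25 moved by at least the SD of that median between libraries, mostly with total counts. Those gave 0.734 instead of 0.868 for bZIP genes with EC359, when the median of all genes was -0.146. They gave 0.116 instead of 0.255 for AP-1 targets in the combination against control, when it was -0.144. All 160 recomputed family shares stayed within the SD between libraries, which could hardly have come out otherwise. For 120 of them a library was left out, and dropping 1 of 3 values cannot move a mean by a full SD. The other 40 used the values as deposited, which rounding had changed by at most 0.5 counts. With trametinib alone FOS, EGR1 and EGR3 had 25, 29 and 1 counts over 3 libraries, which limits the precision of their folds.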
